A study of Mus musculus with 17 samples.

Results

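The late-drop rows are 36 long noncoding RNA features of the newborn mouse heart that stood at similar levels at postnatal day 0 (P0) and day 3 (P3) and lower at day 7 (P7), in the left ventricle (LV) as well as in the right ventricle (RV). They were chosen by their measured values out of 23940 deposited rows, each row being 1 feature. The unit is taken to be FPKM, the number of fragments scaled to the length of the feature and to the depth of the library, and levels were compared as group means of log2(FPKM + 0.1). A row entered when P7 minus P3 was at most -1, and P3 minus P0 was above -0.5 and no more than 0.8, in both ventricles. Its mean over the 17 libraries had to reach 0.3 FPKM and it could not lie on the mitochondrial chromosome, conditions that 4149 rows met. Because the differences between ages chose the rows, they are given below as a description without a test.

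Ventricles of male C57Bl/6 mice were sampled at P0, before the ductus arteriosus shuts, at P3, a stage of transition, and at P7, when most cardiomyocytes have completed differentiation. All groups share strain and sex, and the labels name no altered allele and no treatment. Each combination of ventricle and age had 3 libraries of total RNA, except RV at P7 with 2. The labels call the replicates biological and do not say whether a library pools several mice.

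Long noncoding RNAs are transcripts with no long open reading frame for a protein, and many of them are made in 1 tissue or at 1 stage of development. In the days after birth the lungs take over gas exchange, the load of the ventricles diverges, and cardiomyocytes stop dividing, turn to fatty acids as fuel and exchange fetal for adult contractile proteins. RNA from a whole ventricle mixes cardiomyocytes with endothelial cells, fibroblasts, blood cells and others, so fewer cells of a type and less RNA per cell cannot be told apart in the values below. The tables pair no row with a gene name, so the roles of the 36 features are not known here, and the labelled tissue was not checked against marker genes. Of the late-drop rows, 22 carried an identifier of NONCODE, a catalogue of noncoding RNAs, and 14 a TCONS identifier of the kind written by transcript assemblers. TCONS identifiers made up 38.9% of the late-drop rows and 26.7% of the 4149 rows.

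**Figure D1:**
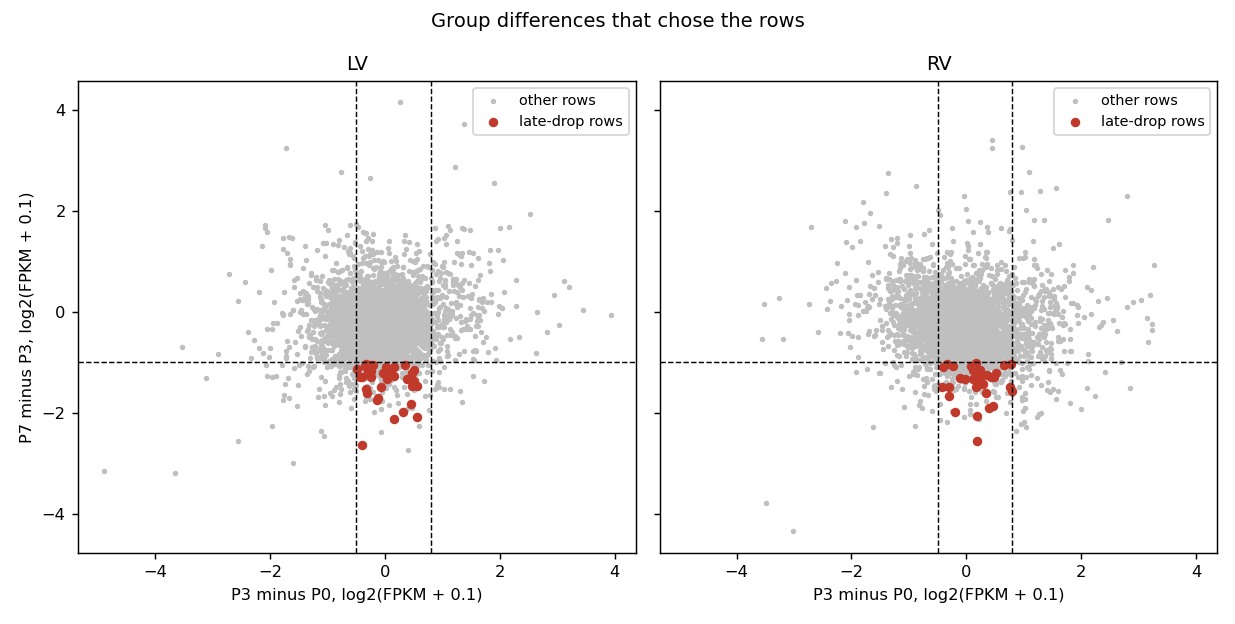
Each point is 1 of the 4149 rows with a mean of at least 0.3 FPKM off the mitochondrial chromosome, with P3 minus P0 on the x axis and P7 minus P3 on the y axis, both on the log2(FPKM + 0.1) scale, for LV at left and RV at right. Dashed lines are the bounds of the rule, and the 36 late-drop rows (red) lie inside them in both ventricles; other rows inside the bounds of 1 panel missed them in the other ventricle.

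The libraries differed in ways that touch these rows. Depth was inferred from the spacing of low values, a step being taken as 1 mate, or read, of a pair. It ran from 13.8 to 20.5 M fragments per library, lowest in RV P3 replicate 2. Between 34.1% and 49.2% of all rows were listed at 0 in a library. A mitochondrial row, NONMMUT071594 at chrM:9203-9888, which was named after its values were seen, split the libraries without regard to ventricle. It held 131.5 to 246.9 FPKM in 6 libraries, called the high set here, which were replicate 3 at P0 and replicates 1 and 3 at P3 of both ventricles. In the other 11 libraries, the low set, it held 7.93 to 25.8 FPKM. All P7 libraries were in the low set, and P3 replicate 2 was the only P3 library of each ventricle in it, so part of any difference between P3 and P7 cannot be told apart from the difference between the library sets.

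At P3 the late-drop rows had a median of 0.649 to 0.879 FPKM in the single libraries, and at P7 a median of 0.196 to 0.269 FPKM. The 6 P0 libraries had medians of 0.697 to 0.929 FPKM, of which 1 was above the P3 range and the others within it. All 12 P0 and P3 libraries thus lay above all 5 P7 libraries in this median. The median late-drop row was 3.06 times as high at P3 as at P7 in LV and 3.01 times in RV, as a ratio of group means in FPKM. On the log2 scale the median P7 minus P3 was -1.28 in LV, with a range of -2.64 to -1.03, and -1.32 in RV, with a range of -2.56 to -1.02. Over the 4149 rows the same medians were -0.25 and -0.28, so rows in general were somewhat lower at P7, and the late-drop rows lay about 1 log2 unit below that shift. When each library was shifted to a common median, 16 rows met the rule, 15 of them late-drop rows.

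Most late-drop rows were scarce. Their mean over the 17 libraries ranged from 0.308 to 26.8 FPKM, with a median of 0.657 against 0.705 for the 4149 rows. In 11 of the 36 the mean was 1 FPKM or more, and in 14 it was under 0.5. At P7, 10 late-drop rows were listed at 0 in at least 1 library, whereas in the P0 and P3 libraries 1 row was (NONMMUT058603). A rule that takes rows low at P7 favours this contrast, and the shares of the 4149 rows are not given here. For 10 rows the values fell on whole multiples of a step, taken as 1 sequenced mate, over the span of the row in every library. The tolerance was 0.05 of a step, with a small allowance for rounding. These 10 rested on 148 to 710 mates summed over the 17 libraries, with a median of 302.5. At P7 they thus often rested on a handful of reads, and their log2 differences are imprecise.

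**Figure D2:**
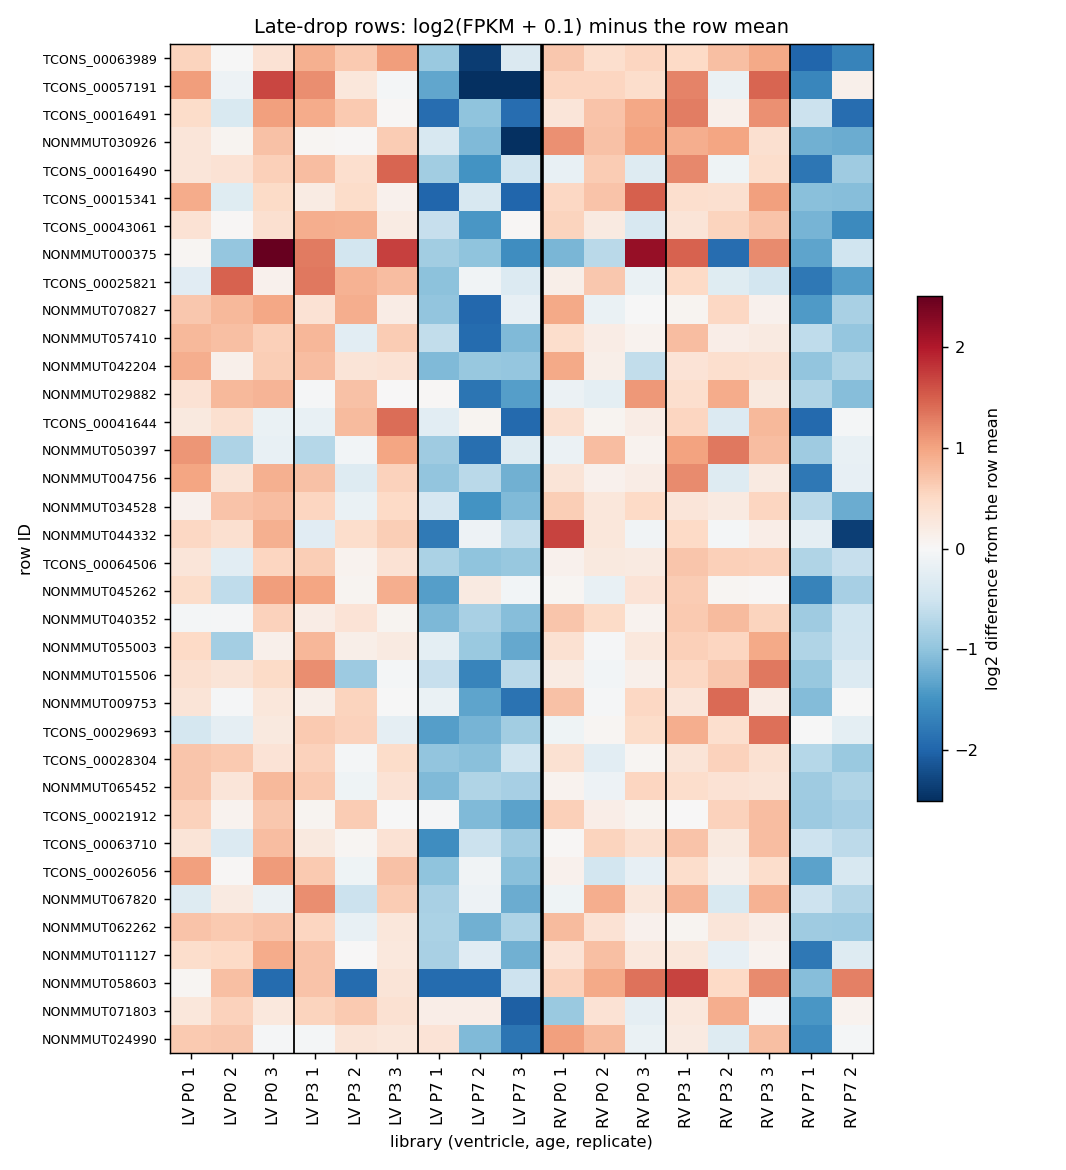
Heat map of the 36 late-drop rows (y axis, ordered from the lowest to the highest mean P7 minus P3) in the 17 libraries (x axis), coloured by log2(FPKM + 0.1) minus the row's mean over the libraries. The P7 columns are blue for most rows, while P0 and P3 columns are mixed pale and red; NONMMUT000375 instead is red in high-set libraries, and NONMMUT058603 is red in RV P7 replicate 2.

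The most abundant late-drop row, NONMMUT000375 (chr1:24620805-24621171), followed the library sets and not age alone. In LV its libraries held 17.4, 8.57 and 96.3 FPKM at P0 (replicates 1 to 3), 41.5, 12.1 and 55.0 at P3, and 9.12, 8.26 and 5.65 at P7. In RV they held 7.54, 10.5 and 76.7 FPKM at P0, 46.6, 4.40 and 38.0 at P3, and 6.71 and 11.9 at P7. All 6 high-set libraries were at 38.0 FPKM or more, and all 11 low-set libraries at 17.4 FPKM or less, whatever the age. Within the 4 groups at P0 and P3, the high set exceeded the low set by 1.97 to 3.23 on the log2 scale. Its average over these groups was 2.81, and no other late-drop row had an average above 0.72 (TCONS_00057191). Single groups of other rows differed by more. At P3 the high set exceeded the low set by 1.52 in RV in TCONS_00057191 and by 1.46 in LV in NONMMUT015506. In NONMMUT058603 the difference in LV was 2.45 at P3 and -2.33 at P0. The median late-drop row had 0.29 in LV and 0.27 in RV at P3, beside 0.29 and 0.15 for rows in general. With the low set alone, P7 minus P3 of NONMMUT000375 was -0.68 in LV and 1.0 in RV, so the direction in RV turned. Whether fragments from the mitochondrial chromosome contribute to this row was not tested.

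**Figure D3:**
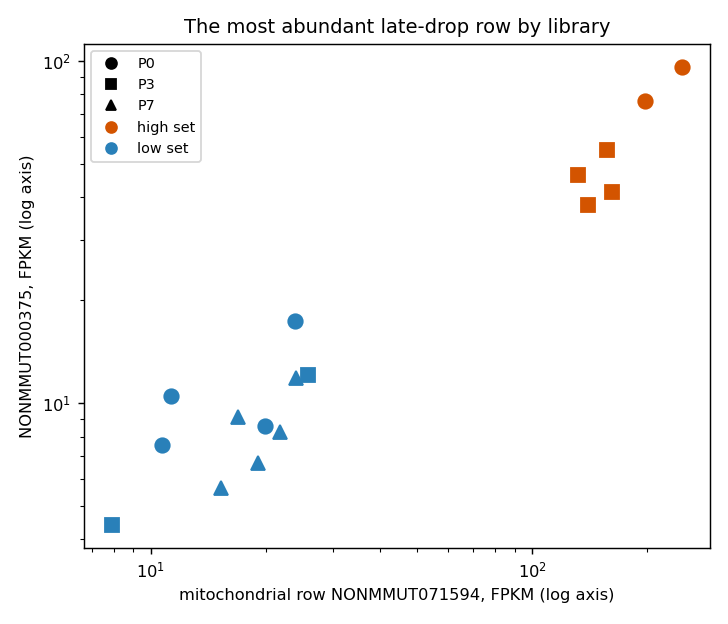
FPKM of NONMMUT000375 (y axis, log scale) against FPKM of the mitochondrial row NONMMUT071594 (x axis, log scale), 1 symbol per library, shaped by age and coloured by library set. The 6 high-set libraries lie apart at upper right, and the P3 replicate 2 libraries (blue squares) lie with the low set, at opposite edges of its mitochondrial range. RV P3 replicate 2 is the lowest library on both axes (7.93 and 4.40 FPKM), and LV P3 replicate 2 has the highest mitochondrial value of the low set (25.8 FPKM).

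Among the other abundant late-drop rows, age separated the libraries more cleanly. NONMMUT062262 (chr7:82913926-82926971, a span of 13046 bp) held 5.21, 5.03 and 5.22 FPKM in LV at P0, 4.59, 2.75 and 3.84 at P3, and 1.78, 1.31 and 1.81 at P7. In RV it held 5.5, 4.09 and 3.40 FPKM at P0, 3.32, 3.93 and 3.58 at P3, and 1.66 and 1.63 at P7. Every P0 and P3 library was thus above every P7 library in both ventricles. Its P3 minus P0 in LV, -0.49, was the late-drop value closest to the lower bound of the rule, and the 3 LV P3 libraries all lay below the 3 at P0. With the low set alone, its P7 minus P3 was -0.73 in LV and -1.21 in RV. P3 minus P0 was then -0.87 in LV and -0.27 in RV, so the row missed the rule and LV was lower already at P3. With each library shifted to a common median, P7 minus P3 was -0.88 in LV and -0.84 in RV, short of the bound.

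TCONS_00064506 (chrX:19675799-19681926) showed little spread at P7. Its LV libraries held 2.18, 1.44 and 2.58 FPKM at P0, 2.73, 1.88 and 2.27 at P3, and 0.973, 0.825 and 0.861 at P7. Its RV libraries held 1.91, 2.09 and 2.05 FPKM at P0, 2.91, 2.71 and 2.65 at P3, and 0.993 and 1.14 at P7. The P7 values lay below all others in both ventricles, and P3 replicate 2 stood with the other P3 libraries in RV and below them in LV. Its P7 minus P3 was -1.27 in LV and -1.29 in RV, and -1.01 and -1.27 with the low set alone.

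TCONS_00043061 (chr4:97813168-97813555) is a short row of 388 bp. In LV it held 1.63, 1.27 and 1.68 FPKM at P0, 2.4, 2.38 and 1.44 at P3, and 0.797, 0.388 and 1.27 at P7. The RV libraries held 1.88, 1.47 and 0.923 FPKM at P0, 1.59, 1.87 and 2.09 at P3, and 0.499 and 0.345 at P7. All P3 libraries lay above all P7 libraries, but LV P7 replicate 3 reached the lowest LV P0 library. These values rest on 20 to 35 mates per P3 library and 5 to 18 per P7 library.

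A pair of late-drop rows on chromosome 19 lay 79.952 kb apart, NONMMUT034528 (chr19:34739734-34741930) and TCONS_00029693 (chr19:34821882-34823067). NONMMUT034528 held 1.20, 1.89 and 1.96 FPKM in LV at P0, 1.66, 0.971 and 1.61 at P3, and 0.805, 0.329 and 0.462 at P7. In RV it held 1.75, 1.38 and 1.60 FPKM at P0, 1.39, 1.32 and 1.65 at P3, and 0.654 and 0.414 at P7. P0 and P3 overlapped in this row, and every P7 library was below both. TCONS_00029693 held 0.821, 0.968 and 1.37 FPKM in LV at P0, 1.86, 1.76 and 0.966 at P3, and 0.379, 0.457 and 0.579 at P7. The RV libraries held 1.06, 1.19 and 1.60 FPKM at P0, 2.25, 1.56 and 3.14 at P3, and 1.14 and 0.949 at P7. Here P3 tended to be above P0, with P3 minus P0 at 0.47 in LV and 0.77 in RV, and RV P7 overlapped RV P0, so the row is close to one that peaks at P3.

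NONMMUT040352, for which the files give no position, held 0.935, 0.950 and 1.49 FPKM in LV at P0, 1.11, 1.25 and 1.02 at P3, and 0.388, 0.510 and 0.411 at P7. In RV it held 1.63, 1.39 and 1.04 FPKM at P0, 1.57, 1.74 and 1.47 at P3, and 0.474 and 0.659 at P7. P3 replicate 2 was the highest P3 library of this row in both ventricles, and all P7 libraries were below all others.

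NONMMUT009753 (chr11:53460001-53461007) held 1.33, 1.01 and 1.29 FPKM in LV at P0, 1.16, 1.57 and 1.03 at P3, and 0.921, 0.359 and 0.218 at P7. The RV libraries held 1.78, 1.01 and 1.53 FPKM at P0, 1.30, 2.95 and 1.19 at P3, and 0.439 and 1.04 at P7. Its P3 replicate 2 was also the highest of the P3 libraries, and RV P7 replicate 2 was above the lowest RV P0 library, 1.01 FPKM.

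In the remaining rows with a mean near 1 FPKM, at least 1 group overlapped or depended on a library. NONMMUT004756 (chr10:12977549-12979100) had group means of 1.5 ± 0.559 FPKM at P3 and 0.530 ± 0.119 at P7 in LV (SD, n = 3 each). In RV it had 1.60 ± 0.917 (SD, n = 3) at P3 and 0.599 ± 0.495 (SD, n = 2) at P7, and RV P3 replicate 2 at 0.865 FPKM was below RV P7 replicate 2 at 0.949. NONMMUT015506 (chr12:106163712-106164352) was at 2.58, 0.535 and 1.05 FPKM in the LV P3 libraries and 0.702, 0.282 and 0.643 in those at P7, so that replicate 2 at P3 lay below 2 of the 3 P7 libraries. With the low set alone its P7 minus P3 was -0.06 in LV and -1.33 in RV. NONMMUT044332 (chr3:97018407-97101808) was at 0.692, 1.20 and 1.36 FPKM at P3 in LV and 0.183, 0.782 and 0.535 at P7. TCONS_00026056 (chr17:26110265-26122666) was at 1.37, 0.763 and 1.44 FPKM at P3 in LV and 0.362, 0.774 and 0.353 at P7. In these 2 rows LV at P3 and P7 overlapped by 1 library, while in RV all P3 libraries were above both P7 libraries. TCONS_00026056 held 0.901, 0.579 and 0.709 FPKM in RV at P0, below every RV P3 library. Its RV P0 replicate 2 was also below RV P7 replicate 2, at 0.603 FPKM.

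The largest differences between P3 and P7, averaged over the ventricles, were in scarcer rows. TCONS_00063989 (chrX:131219697-131222633) held 1.12, 0.723 and 0.979 FPKM in LV at P0, 1.44, 1.22 and 1.62 at P3, and 0.338, 0.0603 and 0.550 at P7. In RV it held 1.24, 1.02 and 1.10 FPKM at P0, 1.08, 1.31 and 1.5 at P3, and 0.111 and 0.161 at P7. The P7 libraries were below all others in both ventricles, and the mean was 4.51 times as high at P3 as at P7 in LV and 9.55 times in RV. P7 minus P3 was -2.09 in LV and -2.56 in RV, and -1.88 and -2.59 with the low set alone.

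TCONS_00057191 (chr8:84778003-84779385) held 1.15, 0.460 and 1.86 FPKM in LV at P0, 1.26, 0.648 and 0.490 at P3, and 0.148, 0 and 0 at P7. The RV libraries held 0.787, 0.790 and 0.725 FPKM at P0, 1.35, 0.446 and 1.58 at P3, and 0.0971 and 0.564 at P7. The LV ages were well apart, whereas RV P3 replicate 2 was below RV P7 replicate 2. NONMMUT030926 (chr17:85461650-85462628) held 0.75, 0.743 and 1.18 FPKM in LV at P3 and 0.528, 0.283 and 0 at P7, and in RV 1.45, 1.53 and 0.987 at P3 and 0.260 and 0.252 at P7. Its P0 libraries ran from 0.770 to 1.27 FPKM in LV and from 1.27 to 1.71 in RV, above all P7 libraries. TCONS_00015341 (chr13:100286597-100295938) held 0.356, 0.440 and 0.326 FPKM in LV at P3 and 0, 0.201 and 0 at P7, and in RV 0.428, 0.424 and 0.702 at P3 and 0.0924 and 0.0894 at P7. It too was below every P0 and P3 library at P7 in both ventricles.

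**Figure D4:**
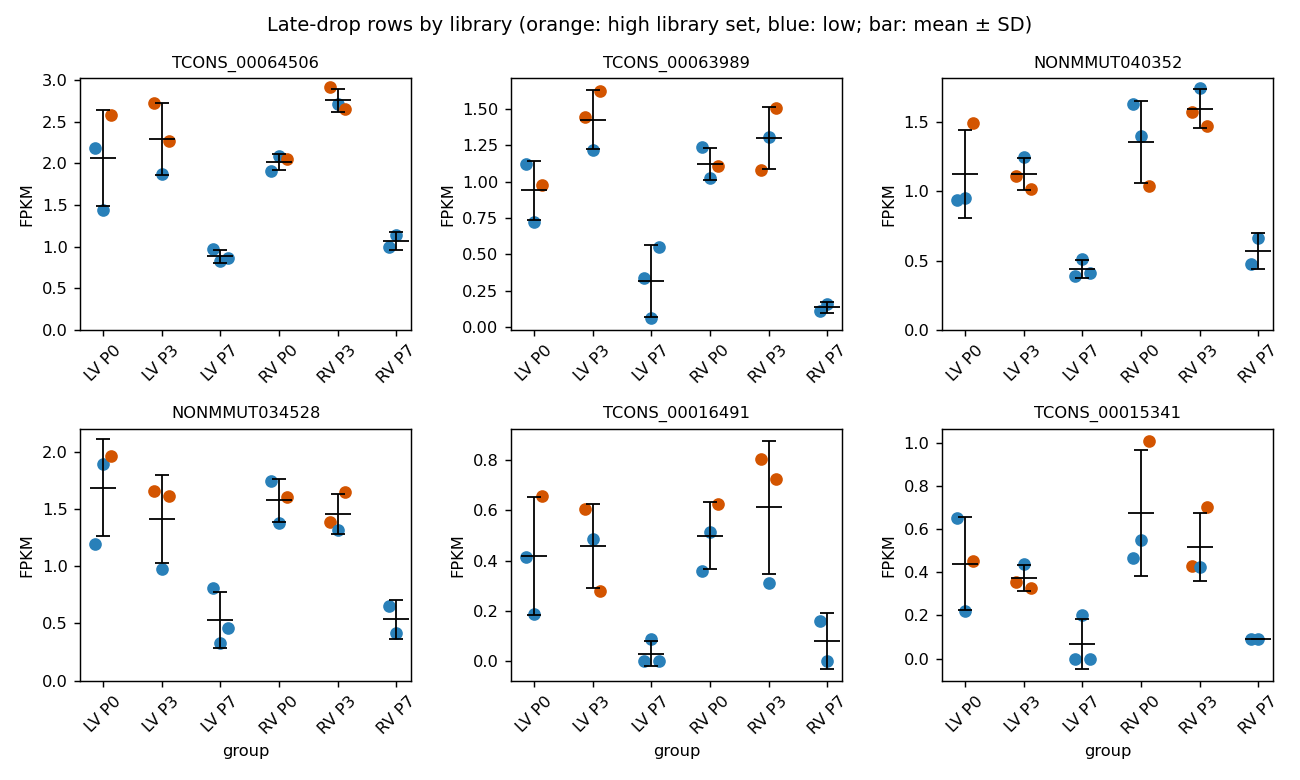
FPKM of 6 late-drop rows (y axes) in each library by ventricle and age (x axes), orange for high-set and blue for low-set libraries, with bars at the group mean ± SD. In all 6 rows each P7 library lies below every P0 and P3 library of its ventricle, which holds for 17 of the 36 late-drop rows. The 6 were picked for display without a stated rule, so they do not stand for the 36. Low-set P3 libraries (blue) are the lowest P3 value in some panels and the highest in others.

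The 33 late-drop rows with a position lay on 18 chromosomes, with 4 each on chromosomes 17 and X and 3 each on chromosomes 3, 8 and 13. Positions are printed as the files give them and are taken to be on mouse build mm9, for which no gene annotation was used here, so neighbours could be sought among the deposited rows alone. Spans ran from 367 to 86971 bp with a median of 2411 bp, against 2230.5 bp for the 4149 rows. Only TCONS_00016490 (chr13:73424814-73427224) and TCONS_00016491 (chr13:73429847-73430549), 2623 bp apart, lay within 50 kb of each other.

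The members of this chromosome 13 pair shared the age pattern that chose them, while their single libraries within a group often ran in different orders. TCONS_00016490 held 0.333, 0.354 and 0.428 FPKM in LV at P0, 0.497, 0.372 and 0.857 at P3, and 0.0933, 0.0250 and 0.148 at P7. In RV it held 0.209, 0.448 and 0.183 FPKM at P0, 0.713, 0.226 and 0.374 at P3, and 0 and 0.0889 at P7. TCONS_00016491 held 0.416, 0.187 and 0.656 FPKM in LV at P0, 0.606, 0.488 and 0.278 at P3, and 0, 0.0856 and 0 at P7. The RV libraries held 0.359, 0.512 and 0.627 FPKM at P0, 0.803, 0.310 and 0.726 at P3, and 0.157 and 0 at P7. Both rows were lower in every P7 library than in every P0 and P3 library of the same ventricle. At P3 in LV, replicate 3 was the highest library of TCONS_00016490 and the lowest of TCONS_00016491, whereas in RV replicate 2 was the lowest of both. The row TCONS_00016489, 32152 bp from the nearer of the pair, was lower at P7 by smaller amounts, with P7 minus P3 at -0.63 in LV and -1.11 in RV. In TCONS_00016491 the P7 values rest on 0 to 4 mates per library, and those at P3 on 6 to 22. Whether the pair are pieces of 1 transcript was not tested.

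Neighbouring rows shared the direction more often than the size of the difference. Within 50 kb of a late-drop row, 29 had another deposited row, and 13 had another with a mean of at least 0.3 FPKM, including the chromosome 13 pair. Leaving out late-drop rows, there were 20 such neighbours, of which 17 were lower at P7 than at P3 in both ventricles, or 85.0%, against 57.7% of the 4149 rows. The neighbours named next were chosen after their values were seen. Only NONMMUT065455, 33562 bp from the late-drop row NONMMUT065452, reached -1 in both ventricles, at -1.68 in LV and -1.33 in RV, and it was already lower at P3 than at P0, with P3 minus P0 at -1.16 and -0.76. TCONS_00043060, 670 bp from TCONS_00043061, had P7 minus P3 of -0.66 in LV and -0.63 in RV, and TCONS_00014075, 635 bp from NONMMUT015506, had -0.68 and -0.54. Rows this close together are not independent of each other.

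Overlapping rows can share reads, and 9 late-drop rows overlapped another row. NONMMUT030926 has the same start and end as NONMMUT030927, which averaged 29.3 FPKM and had P7 minus P3 of -0.56 in LV and -0.30 in RV. The late-drop pattern thus sat in the scarce row of that locus and not in the abundant one. NONMMUT062262 has the same start and end as NONMMUT062263, at 0.942 FPKM, whose P7 minus P3 was -1.30 in LV and -0.98 in RV, close to that of its partner. NONMMUT044332 shares its position with NONMMUT044328, whose P7 minus P3 was 0.02 in LV and -0.93 in RV. The late-drop row NONMMUT024990, named after its values were seen, lies within TCONS_00021747. That row was already lower at P3 than at P0, with P3 minus P0 at -0.76 in LV and -0.52 in RV, and its P7 minus P3 was -0.75 and -0.77. TCONS_00015341 overlapped 2 rows, and no row within 50 kb of it reached a mean of 0.3 FPKM. How reads were divided between overlapping rows is not given in the sources used here, so the values of these late-drop rows are uncertain to that extent.

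Every P3 library placed most late-drop rows above P7, though by unequal margins. In LV, 31 of the 36 rows were above every P7 library in P3 replicate 1, 30 in replicate 2 and 34 in replicate 3. In RV these numbers were 36, 30 and 34. Of the 4149 rows, 57.0%, 30.6% and 47.8% were above every P7 library in LV replicates 1 to 3, and 59.9%, 45.5% and 54.4% in those of RV. A level at least 1 log2 unit above the P7 mean of the ventricle was reached by 31, 21 and 31 rows in LV and by 32, 25 and 34 in RV. The shares of the 4149 rows that reached it were 17.9%, 6.19% and 11.4% in LV, and 13.7%, 11.0% and 11.0% in RV. Replicate 2, the low-set library, was thus the weakest of the 3 in both ventricles by both counts. Its median excess over the P7 mean was 1.21 in LV and 1.26 in RV, against 1.55 and 1.34 for LV replicates 1 and 3, and 1.36 and 1.34 for those of RV. The 4149 rows gave 0.05 and 0.16 for replicate 2, and 0.28 to 0.45 for replicates 1 and 3. These libraries helped to choose the rows, so the counts describe how evenly the P3 libraries carry the pattern and do not test it.

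All 3 P3 libraries were above all P7 libraries in 26 late-drop rows in LV, in 29 in RV and in 22 in both ventricles. Over the 4149 rows these shares were 19.7%, 28.7% and 10.3%. The P0 libraries, too, were all above all P7 libraries in 26 rows in LV, 29 in RV and 22 in both, beside 37.5%, 36.3% and 23.3% of the 4149 rows. Both conditions held in both ventricles in 17 late-drop rows, 47.2% of them, against 6.72% of the 4149 rows. P0 and P3 overlapped in both ventricles in 29 of the 36 (80.6%), beside 61.7% of the 4149 rows. The rule bounds both differences between ages, so these contrasts follow in part from the choice and are a description without a test.

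**Figure D5:**
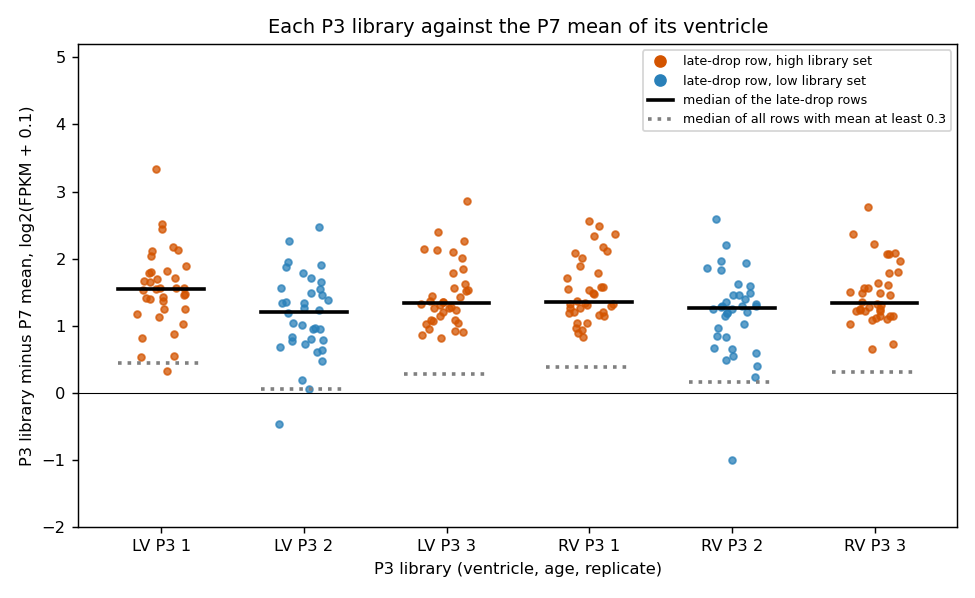
Each point is 1 of the 36 late-drop rows in 1 P3 library (x axis), at its log2(FPKM + 0.1) minus the P7 mean of that ventricle (y axis), orange for high-set and blue for low-set libraries. Solid bars mark the medians of the late-drop rows, 1.21 to 1.55, and dotted lines those of the 4149 rows, 0.05 to 0.45; replicate 2 has the lowest values in both ventricles.

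P3 replicate 2 gave a view of the pattern inside the low set, where the sets do not differ between P3 and P7. With the low set alone, the late-drop rows had a median P7 minus P3 of -1.21 in LV and -1.26 in RV, where the 4149 rows had -0.05 and -0.16. The difference was below 0 in both ventricles in 34 of the 36 rows and at most -1 in both in 16. The whole rule, which then rests on 1 P3 library per ventricle, was met by 11 of the 36. These were 11 of the 32 rows that met it in the low set, 0.77% of the 4149 rows. The medians of the late-drop rows here are the replicate 2 excesses given above with the sign turned, and not a separate result. Replicate 2 and all P7 libraries helped to choose the 36 rows, so differences below 0 follow in part from the choice. The counts of 34 and 16 are thus a description without a test, and the shares of the 4149 rows for them are not given here.

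When the rule was applied with P3 replicates 1 and 3, replicate 2 had no part in the choice beyond the minimum mean. The rule then took 96 rows, 23 of them late-drop rows. In replicate 2 their median excess over the P7 mean was 0.62 in LV and 0.65 in RV, below the 1.27 and 1.24 in the P3 libraries that chose them and above the 0.05 and 0.16 of the 4149 rows. Replicate 2 was above every P7 library in 62 of the 96 rows in LV and in 56 in RV, beside 30.6% and 45.5% of the 4149 rows. Fewer rows reached the size of difference in the rule. Replicate 2 was at least 1 log2 unit above the P7 mean in 22 of the 96 rows in LV and in 30 in RV. The shares of the 4149 rows were 6.19% and 11.0%. The P7 libraries are shared by choice and reading here, so this too is a description.

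Rows taken in 1 ventricle alone were read in the other, whose libraries had no part in the choice beyond the minimum mean. The rule in LV alone took 177 rows, of which 157 (88.7%) were lower at P7 than at P3 in RV and 50 (28.2%) were at most -1 there. Over the 4149 rows these shares were 72.5% and 7.35%. The rule in RV alone took 201 rows, of which 177 (88.1%) were lower at P7 in LV and 53 (26.4%) were at most -1, against 69.9% and 6.65%. Median P7 minus P3 was -0.64 in RV for the rows taken in LV, and -0.74 in LV for those taken in RV. The other ventricle thus carried the same direction in most of these rows and a smaller difference than the one that chose them. Since the library sets cover the same replicate numbers in both ventricles, the part of the sets in this was not tested.

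No late-drop row was called different between the ventricles. The rule set no bound on the difference between RV and LV, and this comparison was tested with limma over all 11079 rows that reached 0.1 FPKM in at least 2 libraries, including all 36. Over the 3 ages, none of the 36 rows was called at a Benjamini-Hochberg adjusted p under 0.05, where 1 of 11079 rows, or 0.00903%, was called. At P0 none of the 36 was called (0% of all rows), and none at P3 or at P7 (0.00903% each). At an unadjusted p under 0.05 there were 4 of the 36 over the ages, 1 at P0, 1 at P3 and 3 at P7, beside 6.90%, 5.30%, 5.88% and 4.47% of all rows. The median RV minus LV of the 36 was -0.01 over the ages, -0.15 at P0, 0.05 at P3 and 0.09 at P7.

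The lowest adjusted p over the ages belonged to TCONS_00029693, at 0.382 in limma, with RV minus LV at 0.62 ± 0.18 (SE) on the log2 scale. Its RV mean exceeded its LV mean at each age, 1.29 against 1.05 FPKM at P0, 2.32 against 1.53 at P3 and 1.05 against 0.472 at P7. NONMMUT058603 (chr6:119026462-119027122) was also higher in RV, by 1.44 ± 0.44 (SE), with a limma adjusted p of 0.413. TCONS_00025821 (chr17:15403356-15404150) was lower in RV, with RV minus LV at -0.80 ± 0.26 (SE) and a limma adjusted p of 0.467. Neither direction prevailed, as 18 of the 36 rows were higher in RV over the ages.

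Membership at the edges of the rule turns on small differences. NONMMUT058603, with P7 minus P3 of -1.02 in RV, and TCONS_00029693, with -1.03, were the last inside that bound, and TCONS_00061652 (-0.999 in LV) and NONMMUT060688 (-0.998 in LV) the first outside. At the lower bound of P3 minus P0, NONMMUT062262 (-0.49) and NONMMUT029882 (-0.43) were inside, and NONMMUT031477 (-0.503) and NONMMUT031485 (-0.53) outside. At the upper bound, NONMMUT050397 (0.79) and TCONS_00029693 (0.77) were inside, and NONMMUT069231 (0.92) and TCONS_00056520 (0.94) outside. At the minimum mean, NONMMUT029882 (0.308 FPKM) and TCONS_00025821 (0.311) were inside, and NONMMUT069244 (0.285) and TCONS_00028169 (0.273) outside. NONMMUT058603 shows how little can carry a row in, since its LV libraries held 0.523, 0 and 0.380 FPKM at P3 and 0, 0 and 0.166 at P7. In RV it held 1.12, 0.438 and 0.771 FPKM at P3 and 0.0836 and 0.809 at P7, so that 1 P7 library lay within the P3 range.

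Of the 93 rows with P7 minus P3 of at most -1 in both ventricles, the late-drop rows were 36. Another 22 were also lower at P3 than at P0 by 0.5 or more in both ventricles, 3 were more than 0.8 higher at P3 than at P0 in both, and 32 fell into different classes in the 2 ventricles. The mirror image, rows level until P3 and at least 1 log2 unit higher at P7 in both ventricles, held 10 rows.

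A core of 9 late-drop rows met the rule whichever of the 17 libraries was left out, and TCONS_00064506, TCONS_00063989, NONMMUT034528, NONMMUT040352, TCONS_00015341 and TCONS_00016491 were among them. Leaving out 1 library does not balance the library sets. With the low set alone NONMMUT034528 no longer met the rule, with P7 minus P3 at -0.83 in LV, while the others named here did. The core rows NONMMUT065452 (-0.79) and TCONS_00028304 (-0.80), named after their values were seen, did not meet it either. Another 6 late-drop rows met the rule in fewer than 12 of the 17 cases, among them NONMMUT000375 in 9 and NONMMUT058603 in 8. The number of rows that met the rule was 55 without LV P3 replicate 2, 27 of them late-drop rows, and 29 to 51 when any other library was left out.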

How the data were processed

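Long noncoding RNA was sequenced from total RNA, per the labels with strand-specific paired-end libraries. The submitters' processing notes name STAR 2.4.0j and build mm10; the tool for counting and the scaling are not given in the labels or tables. Each library has 1 table, deposited by the authors, of identifiers, positions and values, whose unit is not named and was taken as FPKM. Low values times the span of the row lay within 0.02 of an even step for 63.7% to 67.9% of such values per library. The depth of 13.8 to 20.5 M fragments takes a step as 1 mate and a fragment as 2 mates. A step of 1 fragment would give a higher depth, and the 2 readings were not told apart. Of 23940 rows, 702 had no position. Some positions lie beyond the last annotated gene of their mm10 chromosome, so positions were taken as mm9; no position was converted and no sequence is shown.

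Differences are on log2(FPKM + 0.1), which understates changes of low rows. RV against LV was tested with limma 3.58.1 in R 4.3.3, 1 mean per group, with variance trend and robust moderation, two-sided, with Benjamini-Hochberg adjustment over 11079 rows, after a check on simulated data. No pair of libraries held identical values. Members and lists were chosen with earlier results of these data known. The rule for named rows took up to 12 highest means, 8 largest drops, members within 50 kb of each other, 6 rows with P3 apart from P7 and overlapping P0, up to 4 called between ventricles (none was) and 2 rows on each side of each bound. Alternatives changed the pseudocount, scaling, minimum mean, mean or median, libraries used and the fit.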

Additional observations from a re-analysis of the deposited data

How the results depend on the processing

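The number of rows meeting the rule, 36, changed by more than 1.5 times under most settings other than leaving out 1 library. It was 76 with a pseudocount of 0.01 (33 of them late-drop rows), 2 with a pseudocount of 1 (1 of them), 16 with each library shifted to a common median (15) and 57 with group medians in place of means (25). A minimum mean of 1 FPKM left 11, a bound of -1.5 on P7 minus P3 left 6, the rule in LV alone took 177 and in RV alone 201, and P3 replicates 1 and 3 together gave 96. Leaving out 1 library at a time gave 29 to 55, the latter without LV P3 replicate 2. Counts within 1.5 times of 36 were 51 with a minimum mean of 0.1 FPKM, 39 with values summed per position, 32 with P3 replicate 2 alone (10 of them late-drop rows) and 32 in the low library set (11), so a like number did not mean like rows. Of the 22 named late-drop rows, P7 minus P3 turned direction in the low set for NONMMUT000375 in RV (1.0) and NONMMUT058603 in LV (0.47). In RV, NONMMUT058603 ranged from -2.18 to 0.13 when 1 library at a time was left out, above 0 without RV P7 replicate 1. No other named row turned direction under these alternatives. For RV against LV, limma called 0 late-drop rows in all 102 alternative fits, with 0 to 7 at an unadjusted p under 0.05. With a replicate block, which pairs LV and RV libraries of the same age and number, 0 were called, with 5 over the ages, 2 at P0, 2 at P3 and 3 at P7 at an unadjusted p under 0.05. The block takes its pairs from the replicate numbers alone. Residuals of same-numbered libraries correlated weakly, at r = 0.045 to 0.172, and at P0 and P3 each library correlated best with its own number. Whether same-numbered libraries came from the same mice was not tested. Over all rows the block gave 5, 0, 11 and 2 calls, against 1, 0, 1 and 1 without it. Rows near 0.3 FPKM rest on few fragments, and RV P7 on 2 libraries, which limits what these differences can show. The rule could not be applied in the high set, since no P7 library is in it.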
